A study of Mus musculus with 26 samples.

Results

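The genes of voltage-gated calcium, voltage-gated sodium and hyperpolarization-activated (HCN) channels were followed in ribosome-bound RNA from Drd2 cells, chiefly indirect-pathway projection neurons, of mouse dorsal striatum. A gene was a member if its symbol was Cacna1 plus a letter, Cacna2d or Cacnb plus a digit, Scn plus digits and a or b, or Hcn plus a digit, with Cacng genes left out. The rule found 36 of the 31978 genes that all tables share, and the 33 described are 18 calcium, 12 sodium and 3 HCN channel genes. Scn2a is listed under its older symbol Scn2a1. The adult mice were of line Drd2-TRAP CP101, of FVB/N-Swiss Webster origin bred to C57BL/6, and every group carried the transgene that puts a green fluorescent tag on the ribosomal protein Rpl10a in cells that use Drd2. Drd2 is also active in cholinergic interneurons, so the purification need not be limited to projection neurons. Tagged ribosomes were pulled out of dissected dorsal striatum with antibodies against the tag, and mice had given themselves cocaine or saline through a vein in long daily sessions. Among purified libraries, the escalating cocaine group had 2, the non-escalating cocaine group 9 after withdrawal and 4 without it, and the saline group 5 after withdrawal and 3 without it. Unpurified input RNA gave 1 library each from non-escalating, saline withdrawal and saline conditions. The length of withdrawal is not given in the labels, nor is whether each library is a separate animal, so the spread behind each p-value may be technical.

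These channels turn changes in membrane voltage into ion flow. Sodium channels start and carry the action potential; a pore protein (an Scn gene ending in a) is joined by beta subunits (Scn genes ending in b) that change its gating and placement. Calcium channels let in the calcium that triggers transmitter release, shapes firing and reaches gene control, and their pores (Cacna1 genes) work with cytoplasmic beta subunits (Cacnb) and extracellular alpha2delta subunits (Cacna2d). HCN channels open when a neuron is hyperpolarized, pass a depolarizing inward current, and are tuned by cyclic AMP. Striatal projection neurons are known for a hyperpolarized resting state and for high levels of Scn4b, whose protein can help sodium channels to reopen during repetitive firing.

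Scn4b and Scn2b, the members with the highest levels per length, are neighbours on chromosome 9, and Scn1a is the member with the lowest p between purified and input libraries. In GENCODE M21 (GRCm38) Scn2b lies at 45117782 to 45130070 and Scn4b at 45138395 to 45154152, both on the plus strand with 8324 bases between them. Scn1a lies on the minus strand of chromosome 2 at 66270778 to 66440840. Their promoter windows of 300 bases (250 before and 50 after the start of the gene, RefSeq, GRCm38.p6) are shown because the neighbours share high levels and Scn1a differs from them between library types. The RefSeq starts are not those of GENCODE: before the GENCODE starts above, the windows hold 21 bases for Scn4b, 156 for Scn2b and 247 for Scn1a, and the rest lies inside the gene. Capitals mark the CCAAT motif or its other strand, ATTGG.
Scn4b, chr9:45138374-45138673, plus strand: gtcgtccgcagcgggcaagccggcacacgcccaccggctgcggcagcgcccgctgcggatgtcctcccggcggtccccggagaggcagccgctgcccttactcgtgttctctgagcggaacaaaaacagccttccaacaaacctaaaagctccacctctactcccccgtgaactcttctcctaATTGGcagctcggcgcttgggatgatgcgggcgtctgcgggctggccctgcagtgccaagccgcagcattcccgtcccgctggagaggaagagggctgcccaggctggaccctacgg
Scn2b, chr9:45117626-45117925, plus strand: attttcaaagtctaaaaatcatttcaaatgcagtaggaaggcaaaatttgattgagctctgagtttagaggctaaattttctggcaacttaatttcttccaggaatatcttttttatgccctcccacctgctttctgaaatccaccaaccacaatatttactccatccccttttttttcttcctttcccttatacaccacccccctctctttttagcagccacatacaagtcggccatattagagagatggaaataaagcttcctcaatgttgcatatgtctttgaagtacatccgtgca
Scn1a, chr2:66440788-66441087, minus strand: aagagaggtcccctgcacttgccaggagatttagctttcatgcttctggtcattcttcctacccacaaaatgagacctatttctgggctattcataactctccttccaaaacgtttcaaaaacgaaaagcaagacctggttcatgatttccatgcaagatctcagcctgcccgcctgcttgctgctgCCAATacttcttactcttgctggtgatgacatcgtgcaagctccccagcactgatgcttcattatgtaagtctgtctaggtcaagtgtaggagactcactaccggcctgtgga

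The Scn4b and Scn1a windows each held 1 CCAAT motif and the Scn2b window held none, while 37.4% of 32851 windows of this length held at least 1. None of the 3 windows held TATAAA (13.6% of windows), GGGCGG (35.7%) or TGACGTCA (1.79%) on either strand. G and C made up 66.3% of the Scn4b window, 38.3% of the Scn2b window and 47.3% of the Scn1a window, against a median of 52.7% over all windows. The neighbouring Scn4b and Scn2b windows thus differed in base composition. Of the 33 members described, 26 matched a window in the table used.

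The depth in gene counts was 3279457 to 19122303 in purified libraries and 5016587 to 11549493 in inputs. Library numbers in the titles fall into a set A and a set B; withdrawal groups have libraries in both (4 and 5 for non-escalating, 2 and 3 for saline), and the groups without withdrawal only in set A. The set of saline withdrawal set A replicate 2 is not certain: with 32531 genes listed and the lowest depth, 3279457 counts, it is like the set B libraries. The titles call every other set A library a copy of an earlier number, and its own number, 1797, falls within those earlier numbers. The share of uniquely aligned reads that fell outside genes was 21.2% to 70.7% in purified libraries and 27.3% to 31.6% in inputs, and 5 purified libraries were over 50%. Drd2 averaged 3036 ± 1571 CPM in 12 purified libraries and 472 ± 71.0 CPM in 3 inputs (SD), where CPM, the usual counts-per-library-total unit of RNA sequencing, is on library sizes scaled by TMM. Purified libraries had 5 of 6 indirect-pathway markers called higher than input and 3 of 5 direct-pathway markers called lower.

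The sodium beta subunit genes Scn4b and Scn2b had the highest levels of any member, at 168 and 133 CPM per kb of exon on average over the 23 purified libraries. Next came the calcium beta subunit genes Cacnb1 (48.5) and Cacnb4 (43.5), the R-type calcium pore gene Cacna1e (39.8) and the sodium pore gene Scn8a (39.1 CPM per kb). Scn4b and Scn2b kept the top places when length was taken from the longest transcript, but Cacna1e (67.4), Cacnb1 (64.7) and Cacnb2 (57.5 CPM per kb) then followed in that order, so neighbours below Scn2b have no firm order. Scn4b ran from 180.0 CPM in saline withdrawal set A replicate 1 to 1400.0 CPM in non-escalating replicate 1, a 7.78-fold spread. Within libraries, Scn4b lay above Scn2b per kb in all purified libraries but non-escalating withdrawal set B replicates 2 and 4. In every input Scn2b lay above Scn4b. Of 22 members with a mean of at least 10 CPM, 17 had their lowest value in saline withdrawal set A replicate 1, the library with 70.7% of its reads outside genes.

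**Figure D1:**
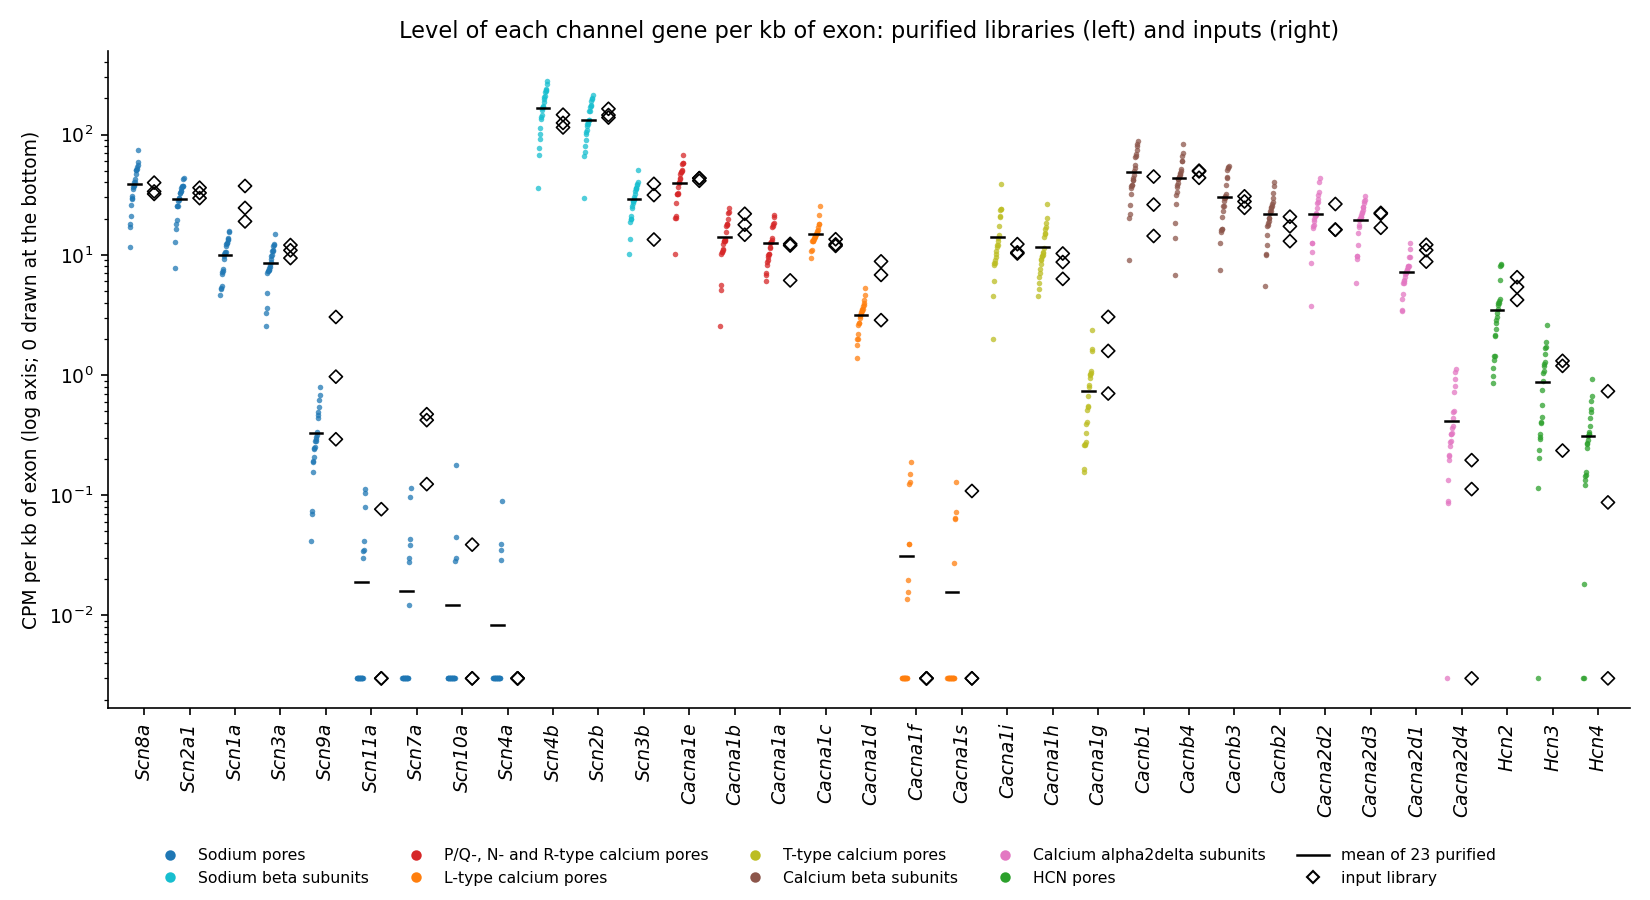
Level of each channel gene in CPM per kb of exon (log axis), with 23 purified libraries as coloured points at the left of each gene, their mean as a line, and the 3 inputs as open diamonds at the right; values of 0 are drawn at the bottom. Scn4b and Scn2b lie highest (means 168 and 133), and Scn4a, Scn7a, Scn10a, Scn11a, Cacna1f and Cacna1s lie near 0.

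Within each family a few genes held most of the level per kb. Among the 9 sodium pores described, Scn8a, the main pore of the mature axon initial segment, held 44.2% ± 4.5 of the summed level (SD, n = 23), Scn2a1, another principal brain pore, held 33.6% ± 2.9, Scn1a, a pore known for its role in fast-spiking interneurons, 11.9% ± 2.7 and Scn3a, a pore prominent before birth, 9.8% ± 1.9. Among the 10 calcium pores, Cacna1e held 35.4% ± 5.1, the L-type pore Cacna1c 14.4% ± 3.7, the N-type pore Cacna1b 12.5% ± 3.6, the T-type pore Cacna1i 11.9% ± 3.6 and the P/Q-type pore Cacna1a 11.5% ± 2.9. The ranges of those last 4 shares overlapped. The T-type pore Cacna1h followed at 10.4% ± 2.5, the L-type pore Cacna1d at 3.0% ± 0.79 and the T-type pore Cacna1g at 0.83% ± 0.99. Among alpha2delta genes, Cacna2d2 (43.2% ± 8.6) and Cacna2d3 (40.02% ± 5.6) exceeded Cacna2d1 (15.6% ± 5.1) and Cacna2d4 (1.2% ± 1.7). Among the 3 HCN pores described, Hcn2 held 72.8% ± 13.5, Hcn3 19.2% ± 13.3 and Hcn4 8.0% ± 5.6. Their levels were low, as Hcn2, the highest of them, averaged 3.50 CPM per kb.

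Members best known from muscle, heart, retina or sensory neurons were at or near 0. Scn4a, the skeletal muscle sodium pore, had 0 to 7 counts per purified library, Cacna1s, the skeletal muscle calcium pore, 0 to 5, Scn10a and Scn11a, sensory neuron pores, 0 to 27 and 0 to 7, and Scn7a, a sodium-sensing relative of the pores, 0 to 8. Cacna1f, the retinal L-type pore, had 0 to 26 counts. A count of 0 allows up to 3 counts, for counting error only. Scn9a, a sensory neuron pore, averaged 4.2 ± 2.5 CPM, Hcn4, the isoform of the heart's pacemaker, 1.9 ± 1.4, Hcn3 3.6 ± 2.8 and Cacna2d4 3.9 ± 2.9 CPM (SD, n = 23).

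Between purified and input libraries, Scn1a fell and Cacnb1 rose among the 27 members that passed the low-count filter. This comparison asks which channel messages are carried by ribosomes of Drd2 cells more or less than by the whole tissue. edgeR's quasi-likelihood test was run over 15607 genes in 12 purified libraries and 3 inputs, with terms for condition and library set and Benjamini-Hochberg adjustment over all genes. Over all genes 3.59% were called higher and 3.79% lower, so 1 member higher and 1 lower of 27 are shares near that background. The members' median log2 fold change was 0.00 (14 positive, 13 negative), against 0.15 for all genes tested. An unadjusted p under 0.05 was found for 5 of the 27 members and for 26.3% of all genes. In bulk RNA, fewer cells of a type and less RNA per cell cannot be told apart.

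Scn1a was lower in every purified library than in any input. It was at 139, 102, 109.5 and 117 CPM in purified non-escalating libraries against 274 CPM in their input. In saline withdrawal it was at 52.0, 58.5, 117, 113 and 82.3 CPM in purified libraries against 417 CPM in the input. In saline it was at 80.1, 149.98 and 116 CPM in purified libraries against 211 CPM in the input. The purified libraries therefore lay within 52.0 to 149.98 CPM and the inputs within 211 to 417 CPM, with no overlap, as for 3.51% of all genes in this direction. The log2 fold change was -1.40 ± 0.22 (SE, adjusted p = 0.00145 by edgeR), and it remained called when any 1 of the 15 libraries was left out. In set A alone, with 2 inputs, no member was called and the adjusted p of Scn1a was 0.0518 by edgeR. Its size differed between conditions. With 1 CPM added, mean log2 CPM of the purified libraries less log2 CPM of the input was -1.23 in non-escalating. It was -2.36 in saline withdrawal and -0.91 in saline, with 1 input each.

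Cacnb1, a calcium beta subunit gene (chromosome 11, 98001508 to 98023034, minus strand), was higher at the edge of the threshold. Purified non-escalating libraries had 376, 295, 209 and 254 CPM against 203 CPM in the input. Purified saline withdrawal libraries had 41.4, 98.2, 168, 171 and 189.9 CPM against 65.0 CPM in the input, and purified saline libraries had 191, 301 and 239.6 CPM against 118.5 CPM in the input. All purified libraries but saline withdrawal set A replicate 1 (41.4 CPM) lay above their own condition's input. The log2 fold change was 0.94 ± 0.28 (SE, adjusted p = 0.0499 by edgeR), and leaving out 1 library ended the call in 11 of 15 cases. Cacnb1 overlaps the predicted gene Gm11629 on the other strand, and the strand setting of the counting is not given.

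Scn4b, known as a gene of striatal projection neurons of both pathways, was not called. Purified non-escalating libraries had 1400.0, 1191, 565 and 861 CPM against 729 CPM in the input. Purified saline withdrawal libraries had 180.0, 458, 666, 925 and 798 CPM against 571 CPM in the input, and purified saline libraries had 701, 1044 and 729.6 CPM against 623 CPM in the input. The purified libraries lay on both sides of the inputs. The log2 fold change was 0.45 ± 0.29 (SE, adjusted p = 0.335 by edgeR), and 0.67 ± 0.19 (adjusted p = 0.0363) with the share of reads outside genes as a covariate.

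**Figure D2:**
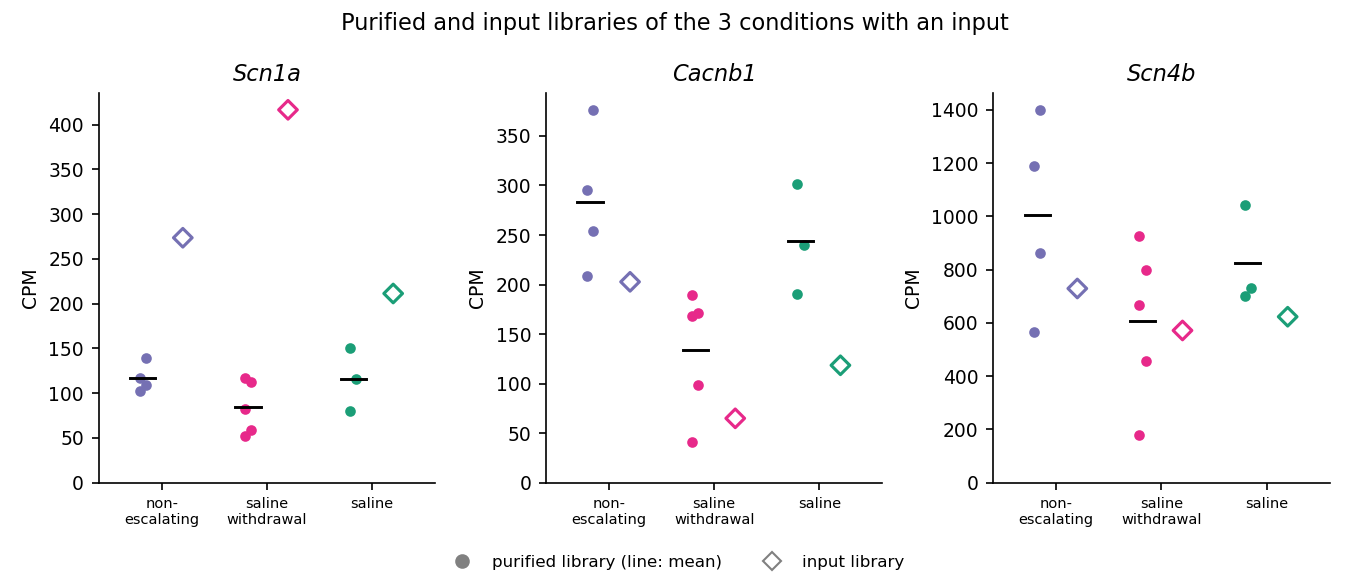
CPM of Scn1a, Cacnb1 and Scn4b in each condition with an input, purified libraries as filled points (left, with their mean as a line) and the input as an open diamond (right); axes start at 0. All Scn1a points lie below all diamonds, between 52.0 and 149.98 CPM in purified libraries against 211 to 417 CPM in inputs, while Scn4b points lie on both sides of their diamonds.

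Of the remaining sodium genes, none was called. Scn8a had a log2 fold change of 0.15 ± 0.21 (SE), Scn2a1 of -0.13 ± 0.24, Scn3a of -0.28 ± 0.22, and Scn9a of -1.43 ± 0.64. Beta subunits had -0.11 ± 0.27 (Scn2b) and 0.14 ± 0.30 (Scn3b). As a share of the summed level per kb of the 9 sodium pores described, Scn1a was 12.04% ± 2.5 in purified libraries (SD, n = 12) and 24.6% ± 5.8 in inputs (n = 3), and Scn8a was 43.9% ± 3.6 in purified libraries and 32.7% ± 0.52 in inputs. The ranges did not overlap for Scn1a (8.17% to 17.4% against 19.0% to 30.6%) or for Scn8a (37.2% to 47.6% against 32.2% to 33.3%). These 2 shares are linked, since a lower share of Scn1a leaves more to the other pores. In CPM, Scn8a overlapped, at 183 to 813 in purified libraries and 506 to 628 in inputs. Both shares were chosen after their values were seen and were not tested. Scn7a, at chromosome 2, 66673425 to 66784914 (minus strand), failed the filter. It had 0, 0, 2 and 3 counts in the purified non-escalating libraries against 39 in their input, 0 in each of the 5 purified saline withdrawal libraries against 4 in their input, and 0 in each of the 3 purified saline libraries against 20 in their input. It was higher only in the inputs, so no p is given for it.

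No calcium pore gene or alpha2delta gene was called. The L-type pore Cacna1d (-0.87 ± 0.31, SE) and Cacna2d1 (-0.58 ± 0.21) had unadjusted p of 0.0118 and 0.0143 and adjusted p of 0.0899 and 0.0995 by edgeR, and DESeq2 called both lower. Cacna1d averaged 38.6 ± 12.8 CPM in purified libraries (SD, n = 12) and 77.8 ± 38.2 CPM in inputs (n = 3). Cacna2d1 averaged 81.1 ± 21.9 CPM in purified libraries and 132 ± 21.0 CPM in inputs. The other L-type pore, Cacna1c, had 0.27 ± 0.16, the P/Q-, N- and R-type pores 0.22 ± 0.21 (Cacna1a), -0.42 ± 0.24 (Cacna1b) and -0.10 ± 0.23 (Cacna1e), and the T-type pores 0.37 ± 0.36 (Cacna1i), 0.37 ± 0.29 (Cacna1h) and -1.23 ± 0.71 (Cacna1g). Cacna2d2, Cacna2d3 and Cacna2d4 had 0.27 ± 0.30, 0.00 ± 0.28 and 1.77 ± 0.89, and Cacnb2, Cacnb3 and Cacnb4 had 0.32 ± 0.28, 0.14 ± 0.28 and -0.19 ± 0.25. Hcn2, Hcn3 and Hcn4 had -0.67 ± 0.45, -0.15 ± 1.11 and 1.01 ± 1.29.

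**Figure D3:**
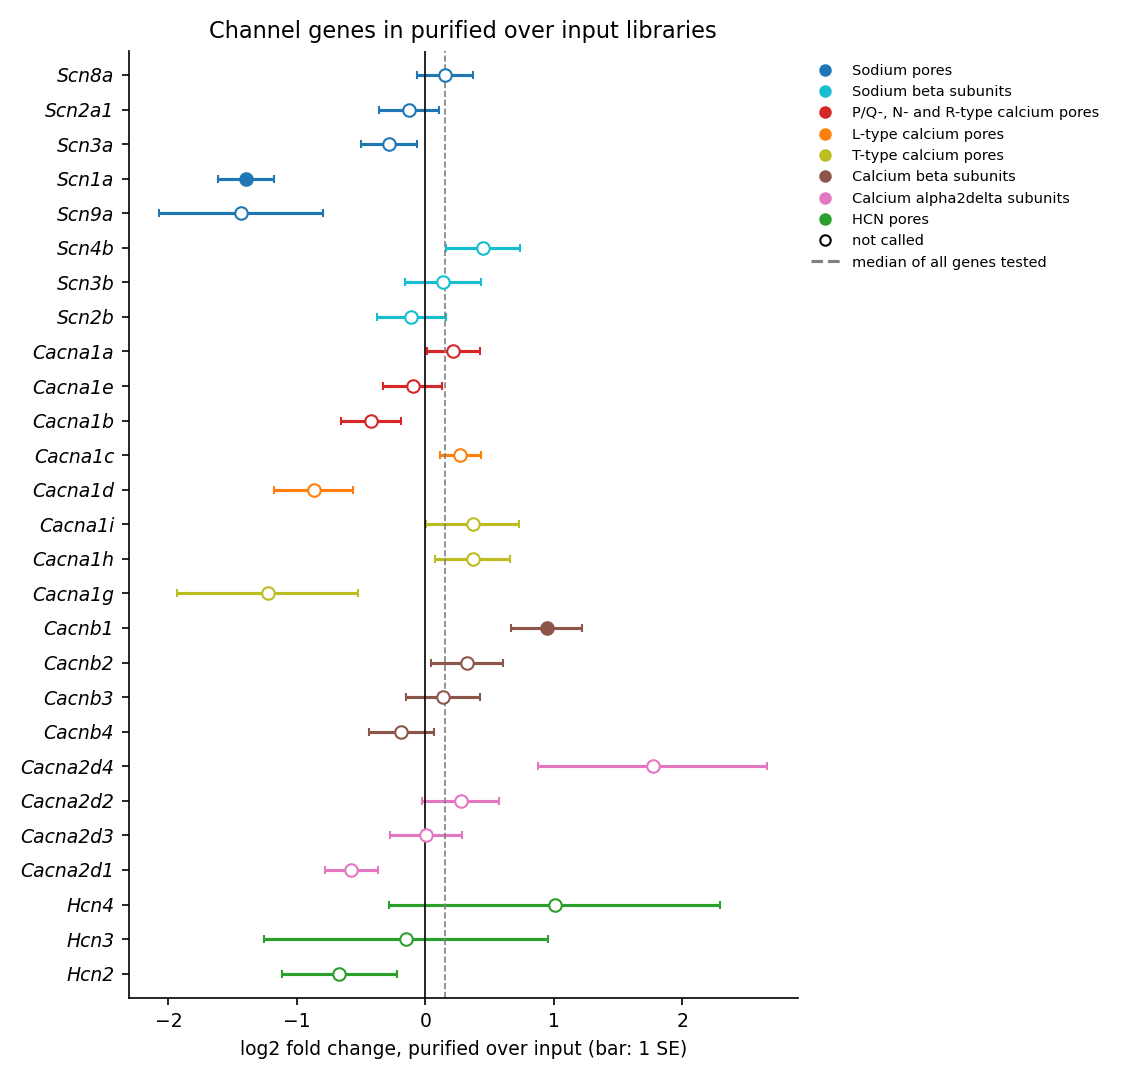
Log2 fold change of purified over input libraries for the 27 members tested, grouped by role from top to bottom, with bars of 1 SE; filled points were called at an adjusted p under 0.05 by edgeR, and the dashed line is the median of all genes tested (0.15). Scn1a (-1.40) is the filled point on the left and Cacnb1 (0.94) the filled point on the right.

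Other cell types' markers also differed between purified and input libraries. Of 7 GABAergic interneuron markers, 4 were called lower (Sst, Lhx6, Kit and Npy), and their summed level was 29.3 to 143 CPM in purified libraries against 287 to 601 CPM in inputs; Pvalb, the marker of fast-spiking cells, was at 0 to 5.51 CPM in purified libraries and 0.309 to 4.77 CPM in inputs. Of 5 cholinergic interneuron markers, 1 (Slc5a7) was called lower, with a summed level of 2.57 to 35.4 CPM in purified libraries against 66.6 to 161 CPM in inputs. Cortical glutamatergic markers summed to 0.126 to 39.9 CPM in purified libraries and 4.54 to 343 CPM in inputs, with 0 of 4 tested called. Astrocyte and oligodendrocyte markers were called lower in 5 of 6 cases each, at 164 to 378 CPM and 99.0 to 345 CPM in purified libraries against 1919 to 3033 CPM and 1444 to 2139 CPM in inputs. Endothelial markers were called higher in 3 of 5 cases (105 to 3564 CPM in purified libraries, 34.2 to 253 CPM in inputs) and mural markers in 1 of 4 (88.0 to 3838 and 84.0 to 85.9 CPM). Microglial markers were called lower in 1 of 4 cases tested (2.38 to 24.3 and 21.97 to 61.1 CPM) and precursor markers of oligodendrocytes in 0 of 3 (6.54 to 362 and 38.8 to 76.9 CPM). The part of these cells in the channel values was not tested.

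Of 29 partner genes, whose proteins bind, anchor or tune these channels, 2 were called higher and 1 lower, with a median log2 fold change of -0.05. Fgf11, a fibroblast growth factor homologue of the family that binds sodium channels, rose by 0.90 ± 0.24 (adjusted p = 0.0324) and Prrt2, a presynaptic protein that also acts on sodium channels, by 0.98 ± 0.23 (adjusted p = 0.0203, edgeR). Fgf11 averaged 194 ± 68.3 CPM in purified libraries (SD, n = 12) and 121 ± 49.1 CPM in inputs (n = 3), and Prrt2 averaged 525 ± 212 and 279.9 ± 28.1 CPM. Nrcam, a cell adhesion protein of the axon initial segment and node, was lower by edgeR at -0.92 ± 0.24 (SE, adjusted p = 0.0329), with 130.5 ± 47.6 CPM in purified libraries and 271 ± 22.1 CPM in inputs. Rrad, an inhibitor of calcium channels, had 0 to 6.25 CPM in purified libraries and 0 in all 3 inputs. It passed the low-count filter only through the purified libraries, where it is higher, so no p is given for it.

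Across the 23 purified libraries, channel genes were lower where more reads fell outside genes. At a given group and library set, 21 of the 28 members tested fell and 1 rose with that share, against 22.8% of all 16911 genes called lower and 25.1% called higher by edgeR. The members' median was -0.40 log2 per 10 percentage points, against 0.02 over all genes. With RLE scaling in place of TMM, 4940 genes were called higher and 2838 lower, against 4241 and 3848, and 20 members remained called lower. The relation was noticed in earlier results on these libraries, so it is a description of them.

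All 3 sodium beta subunit genes, 4 of 5 sodium pores tested, all 4 calcium beta subunit genes, all 3 P/Q-, N- and R-type pores, 2 of 3 T-type pores, 3 of 4 alpha2delta genes, 1 of 3 L-type pores and 1 of 3 HCN pores fell with the share. Scn4b fell by 0.52 ± 0.05 per 10 percentage points (SE, adjusted p = 1.22e-07 by edgeR). It had 180.0, 339, 383, 458 and 501 CPM in the 5 libraries over 50% outside genes against 565 to 1400.0 CPM (median 959) in the other 18, with no overlap. Of the 28 members tested, 7 lay entirely lower in those 5 libraries (Scn4b, Scn2b, Scn8a, Cacna1e, Cacna1i, Cacna2d2 and Cacnb1), where 2.02% of all genes did so. Scn2a1 fell by 0.41 ± 0.05 (adjusted p = 2.46e-07), with 99.0 to 322 CPM in those 5 libraries and 250.3 to 556 CPM in the other 18. Cacna2d3 fell by 0.43 ± 0.05 (adjusted p = 5.26e-07), Cacna1e by 0.42 ± 0.05 (9.12e-07) and Cacna1b by 0.44 ± 0.06 (1.79e-06). Cacna1e had 256 to 685 CPM in the 5 libraries and 803 to 1719 CPM in the other 18.

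The steepest called slopes were those of Cacna1i (-0.59 ± 0.08), Scn4b and Cacna2d2 (-0.50 ± 0.08), and the shallowest were those of Cacna1c (-0.16 ± 0.05), Cacna2d1 (-0.22 ± 0.05), Cacna1a (-0.24 ± 0.05) and Scn1a (-0.28 ± 0.07, SE). Between those ends lay Hcn2 (-0.47 ± 0.12), Cacnb1 (-0.47 ± 0.07), Cacnb3 (-0.46 ± 0.08), Scn2b (-0.44 ± 0.06), Cacnb2 (-0.43 ± 0.06), Scn8a (-0.41 ± 0.07), Cacnb4 (-0.39 ± 0.06), Scn3a (-0.38 ± 0.05), Scn3b (-0.34 ± 0.05) and Cacna1h (-0.32 ± 0.06). Cacna1g, a T-type pore, was the 1 member that rose, by 0.42 ± 0.17 (adjusted p = 0.0479 by edgeR), and leaving out 1 library ended its call in 14 of 23 cases. Its range was 2.73 to 23.9 CPM in the 5 libraries over 50% and 1.59 to 16.8 CPM in the other 18, so the ranges overlapped. Hcn3, Hcn4, Cacna1d, Cacna1f, Cacna2d4 and Scn9a were not called.

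**Figure D4:**
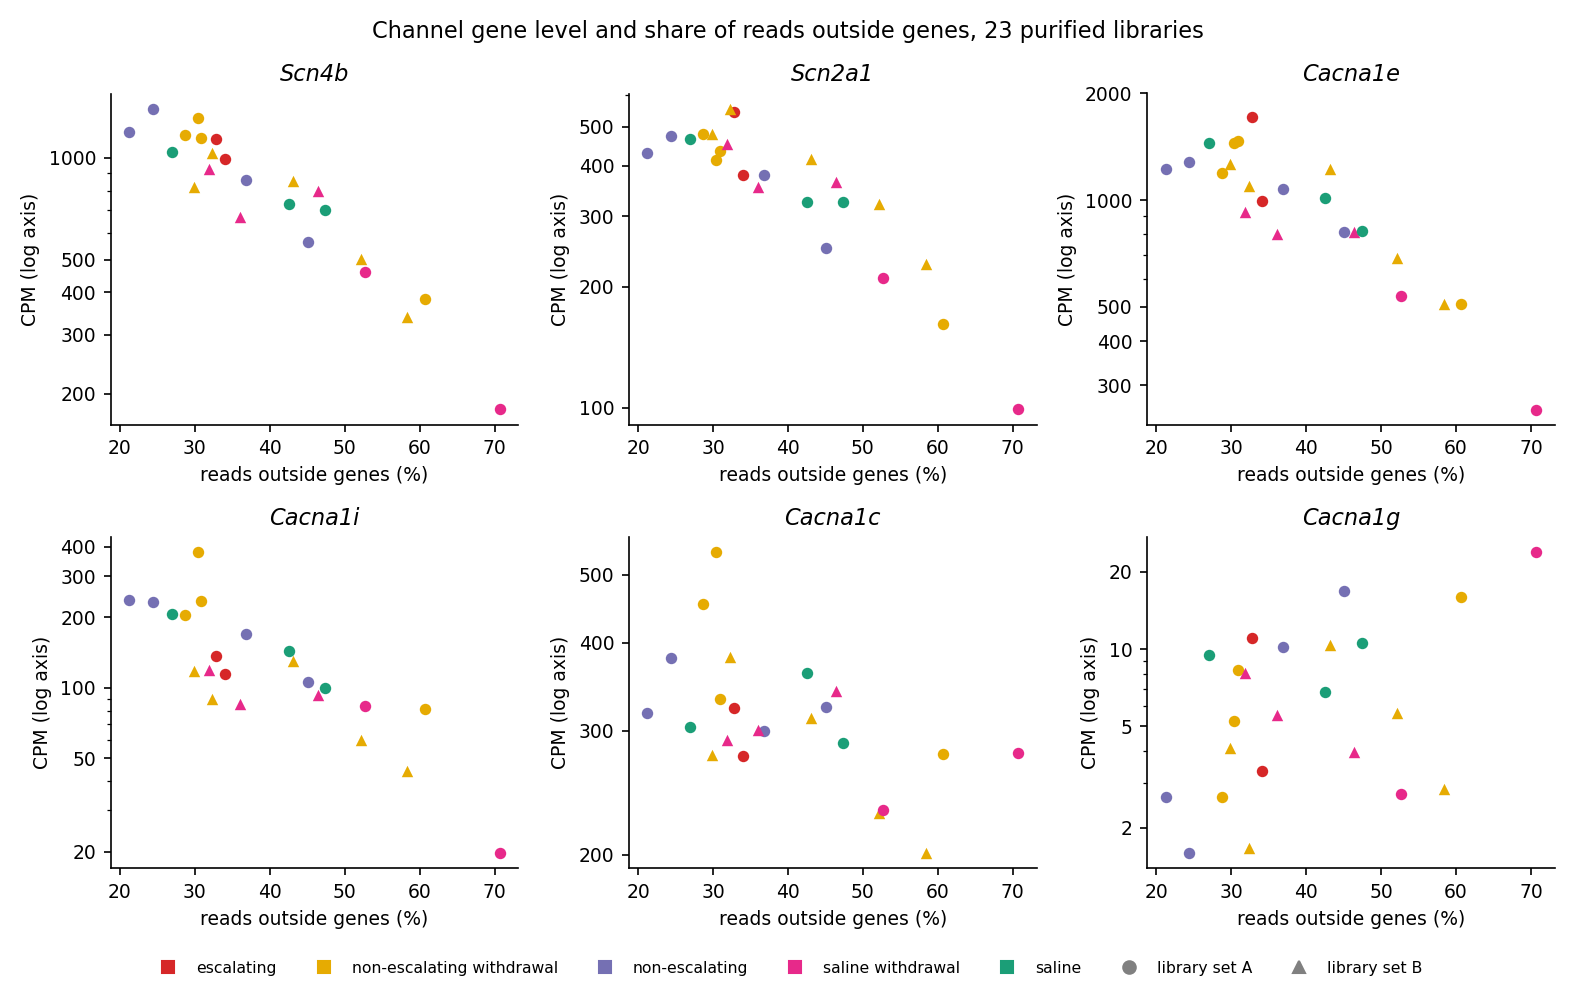
CPM (log axis) of 6 members against the percentage of uniquely aligned reads outside genes in 23 purified libraries, coloured by group, with circles for library set A and triangles for set B. Scn4b, Scn2a1, Cacna1e and Cacna1i fall across the range, Cacna1c is shallow at -0.16 per 10 percentage points, and Cacna1g has a positive slope of 0.42.

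Markers of indirect-pathway neurons and of vessels moved with the same share. All 6 indirect-pathway markers fell (median -0.54 per 10 percentage points), with summed levels of 1952 to 5070 CPM in the 5 libraries over 50% outside genes and 5706 to 17657 CPM in the other 18. All 5 endothelial, all 4 mural and all 3 oligodendrocyte precursor markers rose (medians 0.84, 1.04 and 0.70). Of direct-pathway, cholinergic, GABAergic interneuron and cortical glutamatergic markers, none was called. Their medians were -0.001, 0.13, -0.08 and 0.07. Endothelial markers summed to 1081 to 3564 CPM in the 5 libraries and 42.8 to 2304 CPM in the other 18, mural markers to 438 to 3838 and 14.6 to 2454 CPM, and precursor markers to 96.2 to 362 and 6.21 to 202 CPM. Of the 29 partner genes, 25 fell (median -0.40), among them Calm2 (-0.47 ± 0.05), a calmodulin gene, Snap25 (-0.42 ± 0.05), a release protein, and Nrcam (-0.46 ± 0.05, SE). The part of vessel cells in the channel values was not tested. In set A alone 17 of 28 members fell, against 13.6% of all genes. In set B alone 1 of 26 fell (Cacna2d3), against 1.43% of all genes. Without the 5 libraries over 50% the count was 6 of 28 (Scn4b, Scn2a1, Scn3b, Cacna1b, Cacna2d3 and Cacnb2), against 4.88% of all genes.

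No member was called in any comparison between the 5 groups of purified libraries. These comparisons ask whether cocaine self-administration, escalation of intake or withdrawal changed the channel messages of Drd2 cells. edgeR's test in 1 fit of 23 libraries (16911 genes, 28 members, terms for group and library set) called 0% of all genes in each of the 7 contrasts, and no member was called in any of 260 combinations of contrast and setting tried. Over all genes, unadjusted p was under 0.05 for 356 to 885 genes in the 6 pairs of groups and 345 in the interaction. DESeq2 called 1 to 12 genes per contrast and limma voom 0, with no members among them.

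Between non-escalating cocaine and saline mice without withdrawal, 0 members had an unadjusted p under 0.05 and the members' median log2 fold change was 0.03. The 3 lowest p were those of Hcn4 (-0.89 ± 1.14), Cacnb2 (0.30 ± 0.43) and Hcn2 (0.39 ± 0.62, SE, adjusted p = 1 for each by edgeR). Cacnb2 had 393, 350, 192 and 307 CPM in non-escalating libraries against 158, 327 and 270.0 CPM in saline libraries. Hcn2 had 25.9, 13.7, 9.11 and 12.2 CPM in non-escalating libraries against 9.67, 12.6 and 12.6 CPM in saline libraries. Hcn4 had 2.29, 0, 1.99 and 1.91 CPM in non-escalating libraries against 3.70, 1.75 and 3.22 CPM in saline libraries. All 3 genes overlapped between the groups. For Hcn2 the sign turned with the share of reads outside genes as a covariate (-0.03), and leaving out non-escalating replicate 1 brought it to -0.00.

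Libraries of escalating mice had more Cacna1f counts than the others without withdrawal, at very low levels. Cacna1f (chromosome X, 7607083 to 7635196, plus strand) had 18 and 26 counts (1.16 and 1.38 CPM) in escalating libraries, against 0, 0, 1 and 0 counts in non-escalating libraries and 0, 1 and 0 counts in saline libraries. It passed the low-count filter through the groups where it is high, so no p is given for it, and fitted fold changes over so few counts are not given either. With Cacna1f set aside, no member had an unadjusted p under 0.05 against saline or non-escalating libraries. Against saline, Cacnb2 (435 and 293 CPM in escalating libraries) had 0.53 ± 0.51 and Cacna1b (228 and 181 CPM in escalating libraries, against 130.5, 173 and 130.2 CPM in saline libraries) had 0.50 ± 0.52 (SE). Both escalating libraries lay above all saline libraries for 5 members (Cacna1b, Cacnb4, Cacna2d4, Hcn4 and Cacna1f), where 8.07% of all 16911 genes did so. Both lay above all non-escalating libraries for 4 members (Cacnb4, Hcn3, Hcn4 and Cacna1f), where 4.98% of all genes did so. Cacnb4, a calcium beta subunit gene, had 398 to 424 CPM in escalating libraries, against 239.4 to 386 CPM in non-escalating and 281 to 380.4 CPM in saline libraries. Hcn3, Hcn4, Cacna2d4 and Cacna1f are among the members with the lowest levels. The counts of 5 and 4 members include Cacna1f, which passed the filter through the groups where it is high. Against non-escalating libraries, Hcn4 (4.13 and 5.66 CPM in escalating libraries) had 1.65 ± 1.25 and Hcn3 (5.10 and 6.93 CPM, against 0.997 to 3.70 CPM in non-escalating libraries) had 1.398 ± 1.21 (SE), adjusted p = 1 for each by edgeR. The members' median was 0.23 against saline and 0.10 against non-escalating libraries, and the escalating group holds only 2 libraries. Endothelial, mural, precursor and microglial markers all had negative fold changes in escalating libraries, with medians of -0.96, -0.96, -1.12 and -1.23 against saline and -0.80, -0.54, -0.60 and -1.23 against non-escalating libraries, and none was called. Summed endothelial levels were 284 to 749 CPM in escalating libraries, against 170.4 to 2304 CPM in non-escalating and 105 to 1478 CPM in saline libraries. GABAergic interneuron markers had a median of -0.53 against saline, with 6 of 7 negative and 2 at an unadjusted p under 0.05 by edgeR. Against non-escalating libraries their median was -0.05, with 4 of 7 negative, and none was called in either comparison. The part of these cells in the channel values was not tested.

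After withdrawal, 26 of 28 members had positive fold changes in non-escalating cocaine over saline mice, without a call. Of all 16911 genes, 8605 were positive. The members' median log2 fold change was 0.52, against 0.01 over all genes. Cacna1b, the N-type pore of transmitter release (chromosome 2, 24603887 to 24763152, minus strand), ran from 50.8 to 243 CPM (median 155, n = 9) in non-escalating withdrawal libraries, against 25.5, 56.0, 112, 135.1 and 105 CPM in saline withdrawal libraries. Its log2 fold change was 0.93 ± 0.34 (SE, adjusted p = 0.749 by edgeR). Cacna1a, the P/Q-type pore, ran from 68.5 to 246 CPM (median 146) in non-escalating withdrawal libraries, against 116, 115, 99.1, 93.8 and 80.6 CPM in saline withdrawal libraries, at 0.53 ± 0.24. Cacnb2 ran from 134 to 536 CPM (median 307) in non-escalating withdrawal libraries, against 72.9, 132, 267, 330.2 and 245 CPM in saline withdrawal libraries, at 0.74 ± 0.34 (SE, adjusted p = 0.749 for both). All 3 genes overlapped between the groups. Cacna1e (0.69 ± 0.32) completed the 4 members with an unadjusted p under 0.05, among them all 3 pores of the P/Q, N and R types. An unadjusted p under 0.05 was found for 882 of all 16911 genes. Cacna1a and Cacnb2 overlap predicted genes on the other strand, whose reads could be counted with theirs. The same limit holds for Cacna1d, Cacna1h and Hcn3, which overlap the protein-coding genes Chdh, Tpsg1 and Pklr on the other strand. It also holds for Cacna1s, Cacna2d2, Cacnb4 and Scn9a, which overlap noncoding genes there.

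The withdrawal values differed between the library sets. The members' median was 1.38 in set A alone and 0.07 in set B alone, and Cacna1b had 1.89 ± 0.51 and 0.34 ± 0.27 (SE). With saline withdrawal set A replicate 2 counted in set B, the medians were 1.97 in set A, where 1 saline withdrawal library is left and is assumed to vary like the other groups, and 0.19 in set B, and Cacna1b had 2.57 ± 0.69 and 0.54 ± 0.29. In set A the 2 saline withdrawal libraries had 52.7% and 70.7% of reads outside genes, while the 4 non-escalating withdrawal libraries had 28.7% to 60.7%. In set B the shares were 29.8% to 58.4% in non-escalating withdrawal and 31.9% to 46.4% in saline withdrawal libraries. With that share as a covariate the members' median was 0.30, and without libraries over 50% it was 0.26. Indirect-pathway markers had a median of 0.67, endothelial markers -1.02 and mural markers -1.42, with 0 of 6, 5 and 4 called, and the summed endothelial level was 42.8 to 2930 CPM in non-escalating withdrawal libraries and 749.9 to 3564 CPM in saline withdrawal libraries. Of the partner genes, 26 of 29 were positive and 0 called (median 0.57). The lowest p among them were those of Snap25 (0.84 ± 0.34), Camk2a (0.84 ± 0.37), a calcium-dependent kinase, Prrt2 (0.69 ± 0.33) and Ank3 (0.69 ± 0.33), the anchor of the axon initial segment. The part of the share or of vessel cells in the withdrawal values was not tested.

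**Figure D5:**
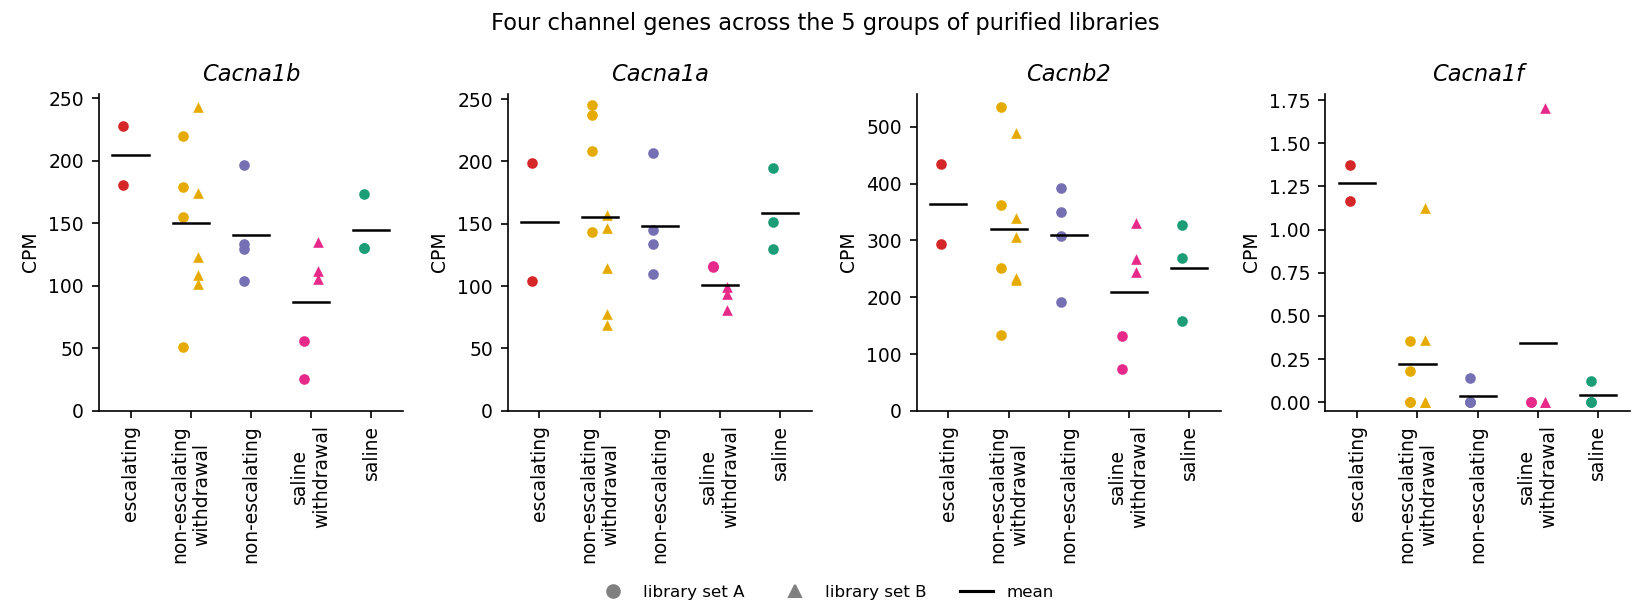
CPM of Cacna1b, Cacna1a, Cacnb2 and Cacna1f in the 5 groups of purified libraries, with circles for set A, triangles for set B and a line at each group's mean. The saline withdrawal circles are the lowest of their group for Cacna1b (25.5 and 56.0 CPM) and Cacnb2 (72.9 and 132 CPM), and Cacna1f is at 1.16 and 1.38 CPM in the escalating libraries and at 1.70 CPM in 1 saline withdrawal library.

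In saline withdrawal set against saline without withdrawal, 23 of 28 members had negative fold changes and none was called. Negative fold changes were found for 7821 of all 16911 genes. The members' median was -0.61 (against 0.08 over all genes, which RLE scaling moved to 0.22 while the members' median became -0.51). The lowest p were those of Cacna1b (-1.12 ± 0.48), Scn3a (-0.94 ± 0.42) and Cacna2d1 (-0.61 ± 0.31, SE, adjusted p = 0.782 for each by edgeR). Scn3a had 32.1, 44.6, 124, 121 and 135 CPM in saline withdrawal libraries, against 91.0, 136 and 102 CPM in saline libraries. Cacna2d1 had 42.1, 53.5, 101.1, 118 and 75.8 CPM in saline withdrawal libraries, against 58.6, 98.5 and 89.8 CPM in saline libraries. For Cacna1b, Scn3a and Cacna2d1 the 2 set A libraries were the lowest of the saline withdrawal group. Without libraries over 50% outside genes, which leaves no saline withdrawal library of set A, the members' median was 0.02. Cell type markers moved in this comparison too, with 0 called: endothelial markers had a median of 1.53 (5 of 5 positive), mural markers 0.99 (4 of 4), precursor markers 1.47 (3 of 3), indirect-pathway markers -0.63 (0 of 6) and cholinergic markers -1.20 (0 of 5). Summed endothelial levels were 749.9 to 3564 CPM in saline withdrawal libraries and 105 to 1478 CPM in saline libraries, and summed indirect-pathway levels were 1952 to 7091 CPM in saline withdrawal libraries and 7618 to 11932 CPM in saline libraries. The part of these cells in the channel values was not tested. This comparison and the one above share the saline withdrawal libraries.

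In non-escalating mice, withdrawal against none gave a median of -0.16. An unadjusted p under 0.05 was found for 1 of 28 members (Scn9a) and for 762 of 16911 genes, a similar share. Scn9a, a pore known from sensory neurons, had 0.536, 0.894, 0.951 and 3.21 CPM in set A and 5.97, 3.76, 7.87, 2.43 and 3.11 CPM in set B of non-escalating withdrawal, against 5.58, 8.68, 4.27 and 3.61 CPM in non-escalating libraries, all of set A. Its log2 fold change was -1.82 ± 0.63 (SE, adjusted p = 0.925 by edgeR). The groups overlapped, through the set B libraries. Cacna1a had 0.39 ± 0.28 and Hcn3 1.18 ± 0.99. The interaction of cocaine with withdrawal had 0 members at an unadjusted p under 0.05 and 345 of all genes; its lowest p were those of Cacna1b (0.97 ± 0.55), Scn3a (0.77 ± 0.48) and Cacna1a (0.62 ± 0.39, SE, adjusted p = 1 for each by edgeR). The members' median was 0.45 for the interaction, against 0.07 over all genes. Endothelial, mural and microglial markers had medians of -0.89, -0.97 and -0.74 there, with every marker tested negative, and indirect-pathway markers 0.62 with 6 of 6 positive. GABAergic interneuron markers had the largest median of the marker lists, 1.17, with 6 of 7 positive. None of these markers was called, and their part was not tested.

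Over the 5 groups, Scn4b averaged 1064 ± 101.4 CPM in escalating (n = 2), 839 ± 359 CPM in non-escalating withdrawal (n = 9), 1004 ± 368 CPM in non-escalating (n = 4), 606 ± 294 CPM in saline withdrawal (n = 5) and 825 ± 190 CPM in saline libraries (n = 3, SD). Ordered by size, neighbouring group means differed by less than the larger of their SDs, and no contrast was called for it. Scn1a averaged 147 ± 11.1, 116 ± 46.5, 117 ± 16.1, 84.5 ± 29.9 and 115 ± 35.0 CPM in the same order of groups.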

How the data were processed

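RNA was sequenced from 23 purified and 3 input libraries. Each library has 1 deposited table of raw counts by gene, which the authors did not normalize. The submitters' processing notes name STAR 2.0.0e, HTSeq and the mm10 build; no source used here gives the annotation release or strand setting. The lines for reads outside genes or otherwise unassigned stayed out of library sizes. Of the tables, 10 list 32531 genes and 16 list 32657; joining by symbol, with 243 renamed pairs, kept 31978 genes holding 99.552% to 99.952% of each library's gene counts.

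Tests used edgeR 4.0.16 in R 4.3.3 (TMM, filterByExpr, quasi-likelihood), called at a Benjamini-Hochberg adjusted p under 0.05 over all genes. Purified libraries were set against input with terms for condition and library set; groups were compared in 1 fit with a term for library set; the percentage of uniquely aligned reads that HTSeq put outside genes was tested at a given group and set. The tests were tested on simulated data. Exon lengths came from GENCODE M21 (union of exons). Of the genes that the member rule and the partner list hold, 3 and 1 are not reported here, and counts, shares and medians leave them out. Alternatives included DESeq2 1.42.0 and limma 3.58.1. The depth limits low members. The limit of 3 counts for a count of 0 covers counting error only, while SDs and SEs include the spread between libraries.

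Values in every library are given for Scn4b and for members called between purified and input libraries, and otherwise for members called or the 3 with the lowest p; of other lists, for called genes or up to the 4 with the lowest p. The members, lists and rules were chosen with earlier results of these data known.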

Additional observations from a re-analysis of the deposited data

Results flagged for a closer look

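In 39 groups of 4 to 9 libraries (13 genes), 1 library lay far from the others in 4 cases. The rule was set for about 1 in 20 groups by chance. Cacna1f groups hold mostly counts of 0, where a few counts in 1 library are flagged, so that rate cannot be applied to the 4 cases. Cacna1f was at 0.142 CPM in non-escalating replicate 3, which is 1 count against 0 in the other 3 libraries and within what a count of 0 allows, so it does not set that library apart. It was at 1.12 CPM (5 counts) in non-escalating withdrawal set B replicate 3 and at 1.70 CPM (6 counts) in saline withdrawal set B replicate 3, against 0 to 4 counts in the other 8 and 0 in the other 4. Hcn4 was at 0 CPM in non-escalating replicate 2, against 1.91 to 2.29 CPM in the other 3.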

How the results depend on the processing

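Settings with no libraries over 50% outside genes, the filter from the design, the longest transcript, and set A or B alone with library 1797 in set B were chosen after seeing the data. In purified against input libraries, the 1 member lower became 3 with DESeq2 (with Cacna1d and Cacna2d1), 2 with voom (with Cacna1d), 2 without the low-count filter or with the filter from the design (with Scn7a, which passes that filter only through the inputs, where it is high), 0 with the replicate block and 0 in set A alone. The 1 member higher became 0 with voom, the replicate block, set A alone, no library set term or the filter from the design, and 2 with the share as covariate (Cacnb1 and Scn4b). Leaving out 1 library gave 1 lower in each case and 0 to 1 higher. With the replicate block Scn1a had -1.41 (adjusted p = 0.0837, edgeR) and Cacnb1 0.86 (0.311); in set A alone they had -1.04 (0.0518) and 0.76 (0.243). Over all genes the 1152 calls became 2950 with DESeq2, 1803 with the share as covariate, 242 in set A alone, 46 with the replicate block, and 240, 565 and 614 without the non-escalating, saline withdrawal or saline input. The labels do not say whether replicate numbers pair the libraries. In residuals after group and library set, 25 same-number pairs had a median correlation of -0.17 (-0.52 to 0.54), against -0.07 for 78 others. Those residuals come from a fit without the share of reads outside genes, so they cannot decide on a pairing. With the share of reads outside genes, the 1 member higher became 2 without the low-count filter or with DESeq2, and 0 with voom, the replicate block, library 1797 (saline withdrawal set A replicate 2) in set B, set B alone or no libraries over 50%; leaving out 1 library gave 0 to 1. The 21 lower became 6 without libraries over 50% and 1 in set B alone. All 8089 calls became 5241 in set A alone, 1939 without libraries over 50% and 1317 in set B alone. For the groups, all-gene calls rose above 0 only for DESeq2 (1 to 12), and in comparisons of escalating mice for no filter (1 and 2), the share as covariate (2 and 4) and leaving out 1 library (up to 6). Hcn2 in non-escalating over saline was -0.0262 with the share as covariate and -0.00281 to 0.57 on leaving out 1 library. Apart from those, the 3 members of lowest p in each group contrast kept their sign and were not called. The members' median turned from -0.61 to 0.02 in saline withdrawal over saline without libraries over 50%, from -0.16 to 0.33 in non-escalating withdrawal over non-escalating under the same setting (0.17 with the share as covariate, 0.05 in set A alone or with only those groups), and from 0.03 to -0.18 in non-escalating over saline with the share as covariate; leaving out 1 library gave -0.05 to 0.21 there and -0.08 to 0.27 in escalating over non-escalating. Causes were not tested.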
